A study of Mus musculus with 20 samples.

Results

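Bile acid synthesis and its control in the mouse liver were followed through 10 genes, 7 for enzymes and 3 for control. They were taken by gene symbol from the 37681 genes that each table of counts lists, and all 10 are among the 15578 genes tested. A gene was tested if it had at least 5 reads in at least 5 of the 10 libraries of any table. The samples were livers of 10 male mice aged 12 weeks, of strain C57/BL6 in one label and C57/B6J in another. Of these, 5 received IL-1β, a cytokine of acute inflammation, at 20 µg/kg and 5 received saline (called untreated), by intraperitoneal injection, and the livers were taken 4 hours later. Each liver's RNA was sequenced on an Illumina and on an Ion Torrent instrument, and the reads were aligned with STAR, GSNAP or STAR + Bowtie2, which gave 6 tables of 10 libraries. Values below are from the Illumina libraries aligned with STAR unless another table is named. The 6 tables hold the same 10 mice, so they are not independent of each other.

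Hepatocytes convert cholesterol into bile acids. In the classical pathway CYP7A1 adds the first hydroxyl group and sets the rate, while CYP8B1 decides how much cholic acid is made. The alternative pathway starts with CYP27A1 and continues with CYP7B1, HSD3B7 acts in both pathways, and SLC27A5 and BAAT join the product to taurine or glycine. The end products feed back on Cyp7a1 through the receptor FXR, which induces the repressor SHP (gene Nr0b2) in the liver, and through the intestinal hormone FGF15, which acts on hepatocytes through FGFR4 and its co-receptor β-Klotho (gene Klb).

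Totals per library ran from 10568530 to 16439683 reads over the 6 tables. In each table every treated total lay below every untreated one. On Illumina with STAR they were 10568530 to 10655860 treated and 10887640 to 11046256 untreated reads. Read counts below are not adjusted for this or for composition and lean towards lower values after IL-1β, while edgeR fold changes come from scaled counts. For Cyp27a1 the log2 ratio of the mean read counts was -0.17, against a log2 fold change of 0.01 by edgeR. The files do not state whether an Illumina count is a read or a read pair, and both are called reads here. No pair of libraries held identical counts. Hepatocyte markers were the most abundant of the marker lists, with a sum of 84915 to 104941 CPM in untreated and 64364 to 78108 CPM in IL-1β mice. CPM is counts per 1000000 reads of the library total after scaling. Of these 6 markers, Alb, Cps1 and Serpina1a fell, Tat rose, and Apoa1 and Ttr were not called, by the test given below. Over all tested genes 22.9% fell and 22.7% rose. Of 6 neutrophil markers, 5 rose (Ly6g was not tested), with a sum of 0.80 to 3.0 CPM in untreated and 44.5 to 102 CPM in treated mice. The treated sums were 2.15 times the untreated ones for cholangiocyte, 0.755 for Kupffer cell, 0.709 for endothelial, 0.574 for stellate cell and 0.511 for lymphocyte markers. The Kupffer cell, endothelial and lymphocyte sums overlapped between the groups. Endothelial markers moved both ways (Kdr and Clec4g lower, Lyve1 higher), as did Kupffer cell markers (Clec4f, Vsig4 and Csf1r lower, Marco higher). The part of these shifts in the results on bile acid genes was not tested. In bulk liver, fewer cells of a type and less RNA per cell cannot be told apart.

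IL-1β lowered genes of the classical pathway and the FGF co-receptor and left Cyp27a1 and Cyp7b1 of the alternative pathway without a call. In the Illumina libraries 5 of the 10 genes fell (Cyp7a1, Cyp8b1, Hsd3b7, Slc27a5 and Klb), 1 rose (Baat) and 4 were not called (Cyp27a1, Cyp7b1, Nr0b2 and Fgfr4) by edgeR's quasi-likelihood test at an adjusted p below 0.05. Over all tested genes 22.9% fell and 22.7% rose by the same rule. The median log2 fold change of the 10 genes was -0.47, against 0 over all tested genes. With a log2 fold change below -1 as well, 3 of the 10 remained (Cyp7a1, Cyp8b1 and Klb), against 8.88% of all tested genes. The untreated and treated counts, before scaling, did not overlap for the 5 genes that fell, and 21.4% of all tested genes were lower without overlap. The scaled CPM of these 5 genes did not overlap either, but the share of all tested genes without overlap of scaled CPM was not computed. In the Ion Torrent libraries aligned with STAR 7 genes fell, Nr0b2 and Fgfr4 being the other two, and 1 rose, with 21.8% of all tested genes lower and 20.3% higher. There 6 genes were lower without overlap of the unscaled counts (21.1% of all tested genes) and 1 was higher (10.2%). Among these 6 the scaled CPM of Fgfr4 overlapped. The other 2 Illumina tables called the same 5 genes lower and Baat higher, with 23.9% and 23.7% of all genes lower and higher under GSNAP and 24.4% and 22.9% under STAR + Bowtie2. The other 2 Ion Torrent tables called the same 7 lower and Baat higher, with 23.9% and 22.5% under GSNAP and 24% and 22.8% under STAR + Bowtie2.

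**Figure D1:**
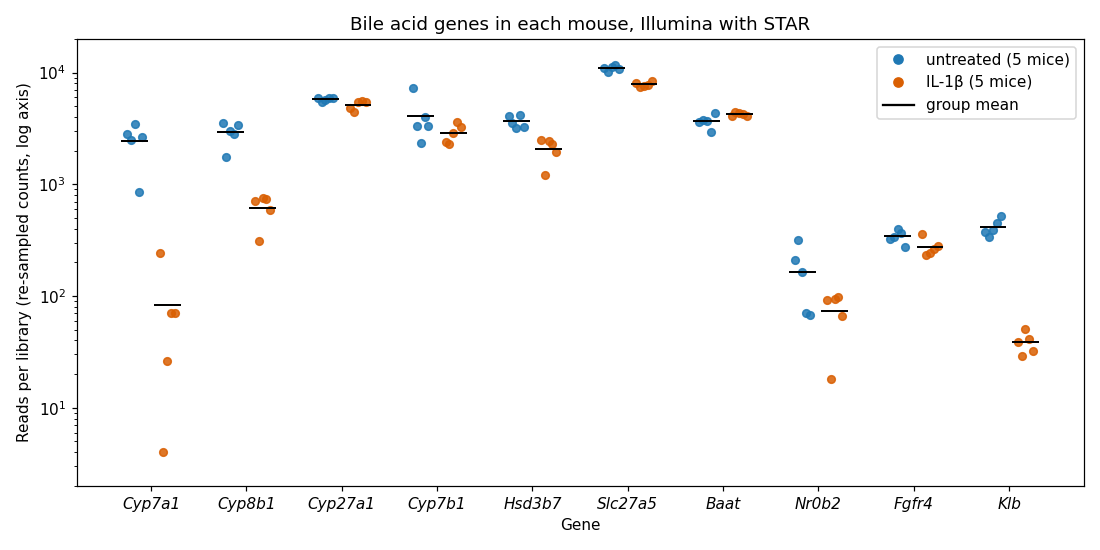
Reads of each bile acid gene in each of the 10 Illumina libraries aligned with STAR, on a log axis; each point is 1 mouse and each black bar a group mean. Cyp7a1 (4 to 242 reads after IL-1β, 849 to 3456 untreated) and Klb (29 to 51 against 339 to 516) separate widely, and Cyp27a1 and Cyp7b1 overlap.

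Cyp7a1 (ENSMUSG00000028240, chromosome 4, 6192759 to 6202780, minus strand, build NCBIM37) encodes the rate-limiting enzyme of the classical pathway. The untreated mice UNT_9574, UNT_9575, UNT_9576, UNT_9580 and UNT_9584 had 2830, 2503, 3456, 849 and 2621 reads. The IL-1β mice ILB_9577, ILB_9578, ILB_9579, ILB_9582 and ILB_9583 had 242, 4, 26, 71 and 71 reads. The highest treated mouse lay below the lowest untreated one, and the treated mice spread over a range of 60.5-fold, against 4.07-fold in the untreated. Cyp7a1 was 26.4-fold lower after IL-1β, a log2 fold change of -4.72 (SE 0.60, edgeR adjusted p = 1.50e-05). Among the 7810 genes with a mean of at least 100 reads, 1 had a lower fold change. The size of the fall depended on mouse ILB_9577, the treated mouse with most reads, without which the log2 fold change was -5.63. Without mouse ILB_9578, which had fewest, it was -4.41.

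The Ion Torrent libraries of the same mice gave 2253, 1993, 2826, 729 and 1694 untreated reads of Cyp7a1 and 246, 11, 20, 28 and 38 treated reads. Mice ILB_9577 and UNT_9580 were again the highest treated and the lowest untreated mouse. They gave a log2 fold change of -4.64 (edgeR adjusted p = 7.41e-06) and between -4.74 and -4.49 over the 6 tables.

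Cyp8b1 (ENSMUSG00000050445, chromosome 9, 121823474 to 121825423, minus strand, NCBIM37) encodes the sterol 12α-hydroxylase of the same pathway and is annotated with 1 exon. The 250 bases before its start in RefSeq are shown because this gene fell and because they hold matches to motifs of liver nuclear receptors. They lie at chr9:121916306-121916555 on the minus strand of GRCm38.p6, another build than that of the gene positions above, and capitals mark the matches.
Cyp8b1: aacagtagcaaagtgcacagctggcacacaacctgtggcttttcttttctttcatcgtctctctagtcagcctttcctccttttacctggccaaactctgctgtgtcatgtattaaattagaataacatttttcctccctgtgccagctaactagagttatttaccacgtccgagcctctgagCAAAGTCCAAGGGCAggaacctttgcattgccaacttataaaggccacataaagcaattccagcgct
The capitals join 2 matches that share bases. The first is CAAAGTCCA, a motif of HNF4, which 0.384% of 32851 RefSeq promoters hold in a window of 250 bases on either strand. The second is CAAGGNCA, an extended half-site of the kind that the receptor LRH-1 (gene Nr5a2) binds, which 5.53% hold. Motifs were chosen after the promoters were read, and a match is a description of letters.

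Untreated mice had 3549, 1761, 3026, 2836 and 3401 reads of Cyp8b1, and treated mice had 712, 308, 747, 745 and 584, in the order of mice given above. The groups did not overlap, and mouse ILB_9578 was again the lowest treated mouse. Expression was 4.18-fold lower, a log2 fold change of -2.06 (SE 0.23, edgeR adjusted p = 4.07e-06), with 78 of the 7810 genes lower. Over the 6 tables it lay between -2.09 and -1.91, and it was -1.89 without mouse ILB_9578.

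Cyp8b1 fell by less than Cyp7a1 within the same libraries. The log2 ratio of Cyp8b1 to Cyp7a1 reads was 0.35 ± 0.86 (SD, n = 5) in untreated and 3.82 ± 1.80 (SD, n = 5) in treated mice, a difference of 3.47 (two-sided exact permutation test, p = 0.0159, adjusted over 4 ratios p = 0.0159). The smallest p that 252 arrangements of 5 against 5 mice allow is 0.00794. Such a ratio does not depend on how a library is scaled.

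Cyp27a1 (ENSMUSG00000026170, chromosome 1, 74760148 to 74784464, plus strand, NCBIM37), the mitochondrial enzyme that opens the alternative pathway, was not called in any of the 6 tables. It had 5934, 5421, 5706, 5877 and 5965 untreated reads and 4828, 4462, 5426, 5549 and 5498 treated reads, and the groups overlapped. The log2 fold change was 0.01, with a 95% interval of -0.20 to 0.22 (edgeR adjusted p = 0.977), so that a change of the size seen in Cyp8b1 lies outside it. The log2 ratio of Cyp7a1 to Cyp27a1, the first enzymes of the pathways, went from -1.38 ± 0.81 (SD, n = 5) to -6.94 ± 2.15 (SD, n = 5), a difference of -5.57 (exact permutation test, p = 0.00794, adjusted p = 0.0106).

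Cyp7b1 (ENSMUSG00000039519, chromosome 3, 17971950 to 18143338, minus strand, NCBIM37), the oxysterol 7α-hydroxylase, was the most scattered gene among untreated mice after Nr0b2 and Cyp7a1. Untreated mice had 7310, 3344, 2331, 4004 and 3343 reads and treated mice 2409, 2280, 2892, 3625 and 3283, so the groups overlapped. The log2 fold change was -0.30 (SE 0.23, 95% interval -0.80 to 0.20, edgeR adjusted p = 0.331). Without mouse UNT_9574, whose count was the highest, it was -0.02, and none of the 6 tables called it. The annotation places a U1 snRNA gene on the same strand overlapping the span of Cyp7b1.

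Hsd3b7 (ENSMUSG00000042289, chromosome 7, 134929122 to 134947316, plus strand, NCBIM37) encodes the ring-modifying dehydrogenase that both pathways use. Untreated mice had 4083, 3543, 3217, 4128 and 3271 reads and treated mice 2497, 1208, 2419, 2290 and 1950, with no overlap. The log2 fold change was -0.64 (SE 0.16, edgeR adjusted p = 0.00435) and -0.50 without mouse ILB_9578. In the annotation used here 57.2% of its exon bases (3523 of 6154) also belong to Setd1a, a histone methyltransferase gene on the same strand, so the assignment of reads between them is uncertain. Setd1a itself had 146 to 211 untreated and 208 to 331 treated reads and rose by 0.86 on the log2 scale (edgeR adjusted p = 0.000224).

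The conjugation steps moved in opposite directions. Slc27a5 (ENSMUSG00000030382, chromosome 7, 13573695 to 13583541, minus strand, NCBIM37), the bile acyl-CoA synthetase, had 11021, 10210, 11255, 11705 and 10648 untreated reads and 8100, 7438, 7573, 7791 and 8432 treated reads. The groups did not overlap, and its log2 fold change of -0.30 (SE 0.09, edgeR adjusted p = 0.0135) was small beside those of Cyp7a1 and Cyp8b1. The treated level was 0.810 of the untreated one, and 2211 of the 7810 genes had a lower fold change.

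Baat (ENSMUSG00000039653, chromosome 4, 49502294 to 49519429, minus strand, NCBIM37), the acyltransferase that attaches taurine or glycine, was the 1 member that rose. It had 3584, 3741, 3695, 2949 and 4366 untreated reads and 4112, 4438, 4323, 4291 and 4122 treated reads. The treated mice lay close together, and untreated mouse UNT_9584 overlapped them. The log2 fold change was 0.39 (SE 0.11, edgeR adjusted p = 0.00949), with 5604 of the 7810 genes lower. By library totals without TMM scaling it was 0.26 (edgeR adjusted p = 0.0430). The Mann-Whitney U test, run on counts without TMM scaling, did not call Baat (adjusted p = 0.172). In the Ion Torrent libraries 2885, 2912, 3132, 2312 and 3029 untreated reads stood against 3723, 4319, 3728, 3623 and 3521 treated reads without overlap, and the log2 fold change was 0.57 (edgeR adjusted p = 0.000241). The log2 ratio of Slc27a5 to Baat fell by 0.71 with treatment (exact permutation test, p = 0.00794, adjusted p = 0.0106), from 1.59 ± 0.26 to 0.88 ± 0.12 (SD, n = 5 each).

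**Figure D2:**
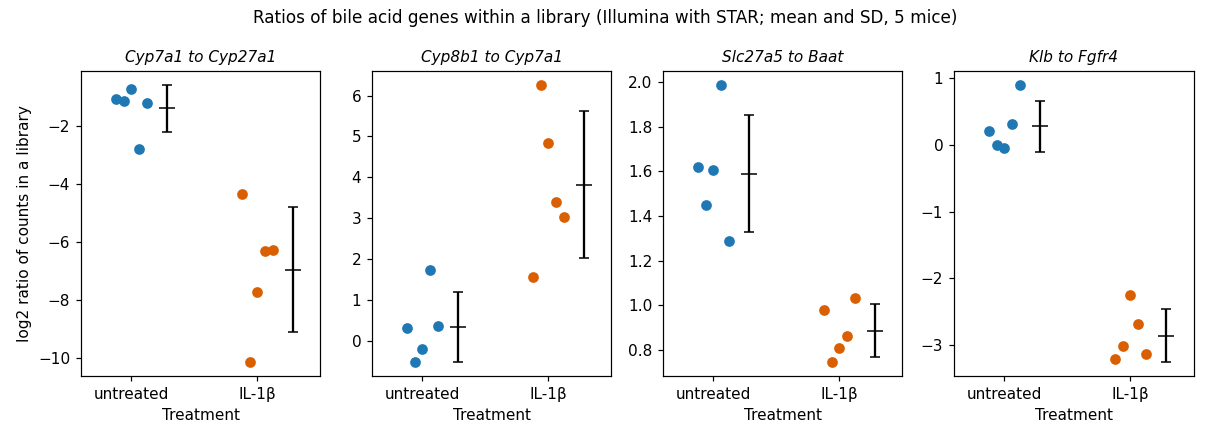
Log2 ratios of the reads of 2 genes in the same Illumina library; points are mice, bars show the mean and SD of 5 mice, and the vertical axes differ between panels. The groups are separate in 3 panels, and in the Cyp8b1 to Cyp7a1 panel the highest untreated mouse (1.74) lies above the lowest treated one (1.56).

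Nr0b2 (ENSMUSG00000037583, chromosome 4, 133109291 to 133112451, plus strand, NCBIM37) encodes SHP, the repressor that FXR induces. Its upstream 250 bases (chr4:133553126-133553375, plus strand, GRCm38.p6) are shown beside those of Cyp8b1 because they also hold matches to motifs of liver nuclear receptors.
Nr0b2: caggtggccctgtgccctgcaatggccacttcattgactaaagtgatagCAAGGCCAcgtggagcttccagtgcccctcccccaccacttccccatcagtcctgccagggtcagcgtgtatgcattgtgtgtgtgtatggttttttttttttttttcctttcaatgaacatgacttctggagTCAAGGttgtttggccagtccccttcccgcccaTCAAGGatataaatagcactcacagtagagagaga
The capitals mark 1 match to CAAGGNCA and, nearer the start, 2 matches to TCAAGG, the core of the motif that receptors of the NR5A family bind. TCAAGG is held by 12.5% of the 32851 promoters. AGGTCA, the plain nuclear receptor half-site held by 14% of promoters, is not among the letters of this window or of the other 5 found in RefSeq (Cyp8b1, Cyp27a1, Hsd3b7, Fgfr4 and Klb). Of the 10 genes, 6 had an entry, all but Cyp7a1, Cyp7b1, Slc27a5 and Baat.

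Nr0b2 had 209, 316, 163, 71 and 68 untreated reads and 92, 18, 95, 99 and 66 treated reads. The untreated mice spread by 4.65-fold, and 2 of them lay within the treated range. The log2 fold change was -0.96 (SE 0.42, 95% interval -1.85 to -0.08), with an unadjusted p of 0.0350 and an adjusted p of 0.0719 in edgeR, so it was not called. The call depended on single mice: without untreated mouse UNT_9580 the log2 fold change was -1.15 (adjusted p = 0.0320), and without untreated mouse UNT_9584 it was -1.15 (edgeR adjusted p = 0.0331). Without mouse UNT_9575 it was -0.60 (edgeR adjusted p = 0.244).

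In the Ion Torrent libraries aligned with STAR, Nr0b2 had 373, 627, 331, 106 and 279 untreated reads and 185, 61, 187, 172 and 159 treated reads. It was called lower there (log2 fold change -0.99, edgeR adjusted p = 0.0244) and in the other 2 Ion Torrent tables, and in none of the 3 Illumina tables. The effects themselves differed by -0.01 between platforms, with a 95% interval of -0.44 to 0.43. Untreated mouse UNT_9584 had the lowest untreated count on Illumina and the second lowest on Ion Torrent.

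Klb (ENSMUSG00000029195, chromosome 5, 65739625 to 65775242, plus strand, NCBIM37), the co-receptor for FGF15 and FGF21, changed most after Cyp7a1. Its upstream 250 bases (chr5:65348161-65348410, plus strand, GRCm38.p6) are printed because of this fall and hold none of the 4 motifs searched.
Klb: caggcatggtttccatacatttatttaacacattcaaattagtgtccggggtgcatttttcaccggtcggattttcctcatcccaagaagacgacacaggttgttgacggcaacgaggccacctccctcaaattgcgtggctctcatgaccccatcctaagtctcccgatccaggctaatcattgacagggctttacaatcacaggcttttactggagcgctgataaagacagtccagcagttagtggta
Untreated mice had 377, 339, 388, 452 and 516 reads and treated mice had 39, 29, 51, 41 and 32. The groups lay far apart, and unlike Cyp7a1 the treated mice spread by 1.76-fold only. Klb was 9.58-fold lower, a log2 fold change of -3.26 (SE 0.18, edgeR adjusted p = 4.28e-09), with 21 of the 7810 genes lower. It lay between -3.26 and -2.97 over the 6 tables and between -3.39 and -3.14 with each mouse left out in turn.

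Fgfr4 (ENSMUSG00000005320, chromosome 13, 55254001 to 55270120, plus strand, NCBIM37), the receptor that pairs with β-Klotho, had 326, 340, 401, 366 and 277 untreated reads and 361, 233, 243, 264 and 281 treated reads. The groups overlapped and the gene was not called (log2 fold change -0.13, SE 0.13, 95% interval -0.40 to 0.14, edgeR adjusted p = 0.429). In the Ion Torrent libraries it had 586, 675, 632, 556 and 648 untreated against 504, 377, 403, 361 and 482 treated reads and was called lower (log2 fold change -0.38, edgeR adjusted p = 0.0131). Those counts did not overlap, but the scaled CPM did. The log2 ratio of Klb to Fgfr4 fell by 3.13 with treatment on Illumina (exact permutation test, p = 0.00794, adjusted p = 0.0106).

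**Figure D3:**
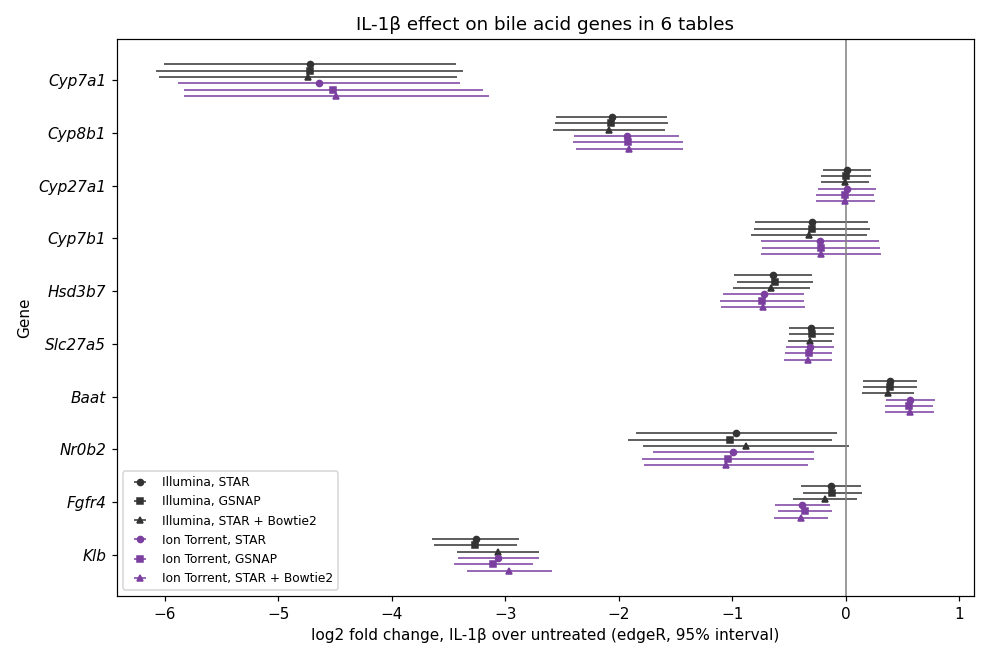
Log2 fold change with its 95% interval (edgeR) for each bile acid gene in the 6 tables, which share the same 10 mice; 0 means no difference between IL-1β and untreated. Cyp7a1, Klb and Cyp8b1 lie below -1.5 in all 6 tables, and Fgfr4 and Nr0b2 are the genes whose call differs between platforms.

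The difference between the platforms was tested as a platform-by-treatment term over the 20 libraries aligned with STAR, with the mouse as a block. None of the 10 genes was called by edgeR (0 of 10, against 0.00642% of all tested genes). At an unadjusted p below 0.05 there were 2, against 1090 of the 15578 tested genes. They were Baat with 0.18 (SE 0.08, edgeR unadjusted p = 0.0231) and Fgfr4 with -0.24 (SE 0.11, edgeR unadjusted p = 0.0477). Each value is the Ion Torrent minus the Illumina log2 fold change. DESeq2 and limma also called 0 of the 10, with 1 and 3 at an unadjusted p below 0.05. Of the 15578 tested genes 633 and 1272 were below it. For Fgfr4 the call in one platform and not in the other is therefore not shown to be a difference between them.

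Levels between genes on Illumina were compared per length of exon, as FPKM, which is the scaled CPM divided by the exon length in kilobases, in untreated mice and without Hsd3b7. Slc27a5 was highest at 391 ± 27.0 FPKM (SD, n = 5), followed by Cyp27a1 at 267 ± 18.7. Baat (165 ± 27.2), Cyp7b1 (162 ± 71.2) and Cyp8b1 (131 ± 32.9) came next, and their ranges overlapped. Cyp7a1 stood at 51.0 ± 19.8, below all untreated values of Cyp8b1.

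The control genes Nr0b2 (12.5 ± 7.60), Klb (10.5 ± 2.23) and Fgfr4 (8.37 ± 1.03) were lowest and overlapped each other. After IL-1β the mean level of Klb was 1.09 ± 0.246 FPKM and that of Cyp7a1 1.92 ± 2.12, both below Fgfr4 at 7.64 ± 1.25. The 4 highest means after IL-1β on Illumina were those of Slc27a5, Cyp27a1, Baat and Cyp7b1, as in untreated mice. In the untreated Ion Torrent libraries Cyp8b1 (172 ± 45.1) came next after Cyp27a1, before Baat (112 ± 11.7) and Cyp7b1 (104 ± 54.2).

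Mouse ILB_9578 stood apart from the other treated mice. It had the lowest treated level (CPM) of 9 of the 10 genes on Illumina and of 7 on Ion Torrent, and the highest of Baat on both. Leaving it out left the count of genes called lower at 5 and higher at 1. The shares of all tested genes without this mouse were not computed. Untreated mouse UNT_9580 had the lowest untreated count of Cyp7a1 and of Baat on both platforms.

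**Figure D4:**
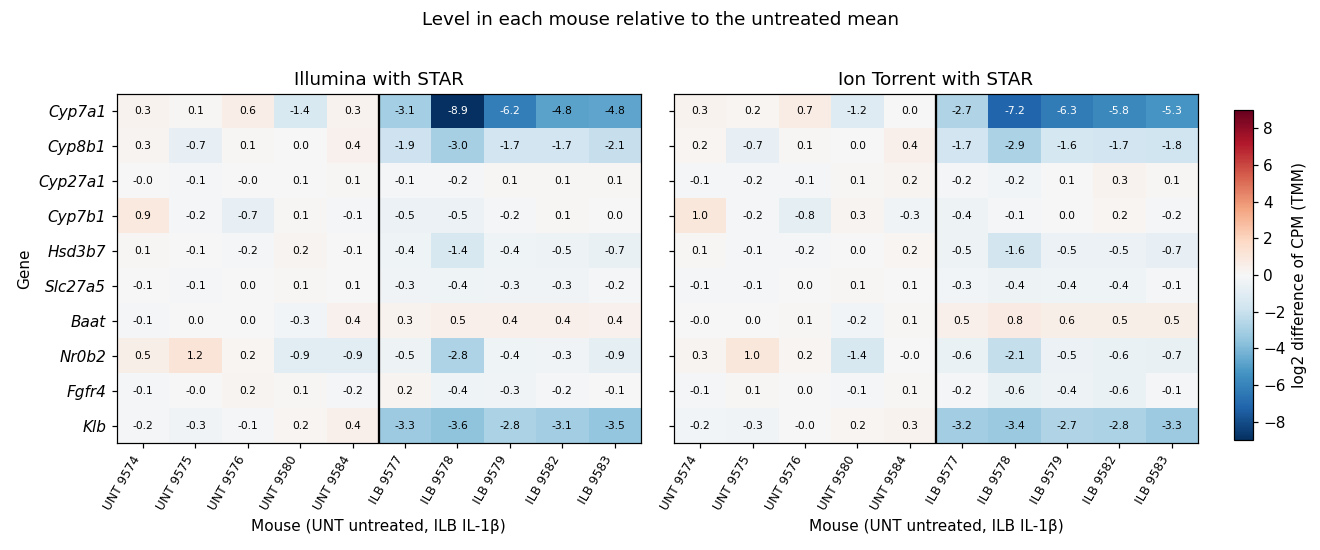
Log2 level (TMM-scaled CPM) of each gene in each mouse minus the mean of the 5 untreated mice, for Illumina (left) and Ion Torrent (right) libraries aligned with STAR; blue is below and red above the untreated mean. The column of mouse ILB_9578 is the lowest treated column for 9 of 10 genes on Illumina, and the Cyp7a1 and Klb rows are lower in all 5 treated mice on both platforms.

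Other enzymes and carriers of bile acid synthesis were read from a list of 14 genes. Of these 10 fell (Akr1d1, Akr1c14, Cyp39a1, Cyp46a1, Cyp2a12, Slc27a2, Amacr, Hsd17b4, Scp2 and Abcd3), 1 rose (Ch25h) and 3 were not called (Cyp2c70, Acox2 and Acot8), against 22.9% lower and 22.7% higher over all tested genes. Scp2 was not called in the 3 Ion Torrent tables. The list was chosen with earlier results of these data known, so its counts beside those of all genes are a description only. The list's median log2 fold change was -0.75. Akr1c14, an aldo-keto reductase of a multigene family whose members can share reads, had 5681 to 7097 untreated and 1113 to 2442 treated reads, a log2 fold change of -1.73 (SE 0.19, edgeR adjusted p = 2.73e-06). Cyp46a1, the cholesterol 24-hydroxylase, had 11 to 30 and 4 to 9 reads (log2 fold change -1.49, SE 0.34, edgeR adjusted p = 0.00225).

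Ch25h, the cholesterol 25-hydroxylase, was the exception in direction. It had 1, 1, 0, 0 and 1 untreated reads and 13, 18, 14, 5 and 6 treated reads, with a log2 fold change of 4.12 (SE 0.61, edgeR adjusted p = 5.62e-05), a value that depends on how the fit treats counts near 0. In all, 56 treated reads stood against 3 untreated reads, a ratio of 19.3 per library size with a 95% interval (exact binomial, counting error only) of 6.28 to 96.5. It is known as an enzyme induced in macrophages during inflammation. The macrophage markers moved both ways here, with 3 of 6 lower and Marco higher, against 22.9% and 22.7% of all tested genes. Their part in the rise of Ch25h was not tested.

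Of 18 regulators known to act on Cyp7a1 or Cyp8b1, 5 fell (Nr1h4, Ppargc1a, Mafg, Dbp and Hdac3), 3 rose (Hnf4a, Klf15 and Gps2) and 10 were not called, with a list median of 0.00 on the log2 scale. These counts lie near those of all tested genes, of which 22.9% fell and 22.7% rose. The call of Klf15, a factor of fasting metabolism, was made in none of the other 5 tables and in 8 of 23 alternatives. Its log2 fold change was 0.38 (SE 0.14, edgeR adjusted p = 0.0345), and it was not called by limma, by the Mann-Whitney U test or without mouse ILB_9577, ILB_9582, ILB_9583, UNT_9574, UNT_9576 or UNT_9584. Hnf4a, the hepatocyte nuclear factor that activates both genes, had 7228 to 8370 untreated and 13135 to 15542 treated reads, a log2 fold change of 1.05 (SE 0.09, edgeR adjusted p = 3.95e-07). The genes it activates, Cyp7a1 and Cyp8b1, fell in the same mice. HNF4A protein and its binding were not measured, and a link between these changes was not tested. Nr5a2 (LRH-1) had 462 to 690 and 478 to 598 reads and was not called (log2 fold change 0.00, 95% interval -0.25 to 0.25).

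Nr1h4, the gene of FXR, had 1388 to 2190 untreated and 1116 to 1524 treated reads (log2 fold change -0.38, SE 0.13, edgeR adjusted p = 0.0251). Without mouse ILB_9578, ILB_9582, UNT_9576 or UNT_9584 it was not called (edgeR adjusted p = 0.0617, 0.0557, 0.0563 and 0.0631). Mafg, a repressor that FXR induces, fell from 979 to 1354 untreated reads to 554 to 671 treated reads (log2 fold change -0.67, SE 0.11, edgeR adjusted p = 0.000113). Dbp, a clock factor that activates Cyp7a1, had a log2 fold change of -1.82 (SE 0.31, edgeR adjusted p = 0.000232) and Ppargc1a, a coactivator, of -1.23 (SE 0.33, adjusted p = 0.00643).

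Of 9 genes around FGFR4 and β-Klotho, 6 were tested, of which 1 fell, 2 rose and 3 were not called (Fgfr1, Fgfr2 and Frs2). Over all tested genes 22.9% fell and 22.7% rose, so the counts of this short list lie near those shares. Fgfr3 fell (277 to 612 untreated and 111 to 281 treated reads, log2 fold change -1.28, SE 0.23, edgeR adjusted p = 0.000357). Fgf21, the liver hormone that also needs β-Klotho, rose from 1 to 8 reads to 6 to 19 (log2 fold change 1.93, SE 0.47, edgeR adjusted p = 0.00342). Ptpn11, the phosphatase that carries the signal onward, rose by 0.53 on the log2 scale (SE 0.08, edgeR adjusted p = 0.000104). The median log2 fold change of the list was 0.07, and Kl and Gpbar1 had too few reads to be tested.

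Fgf15 itself, which the ileum makes, had 0 reads in all 60 columns of the 6 tables. A count of 0 allows up to 3 reads, or 0.272 to 0.284 CPM by unscaled totals per Illumina library, for counting error only.

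**Figure D5:**
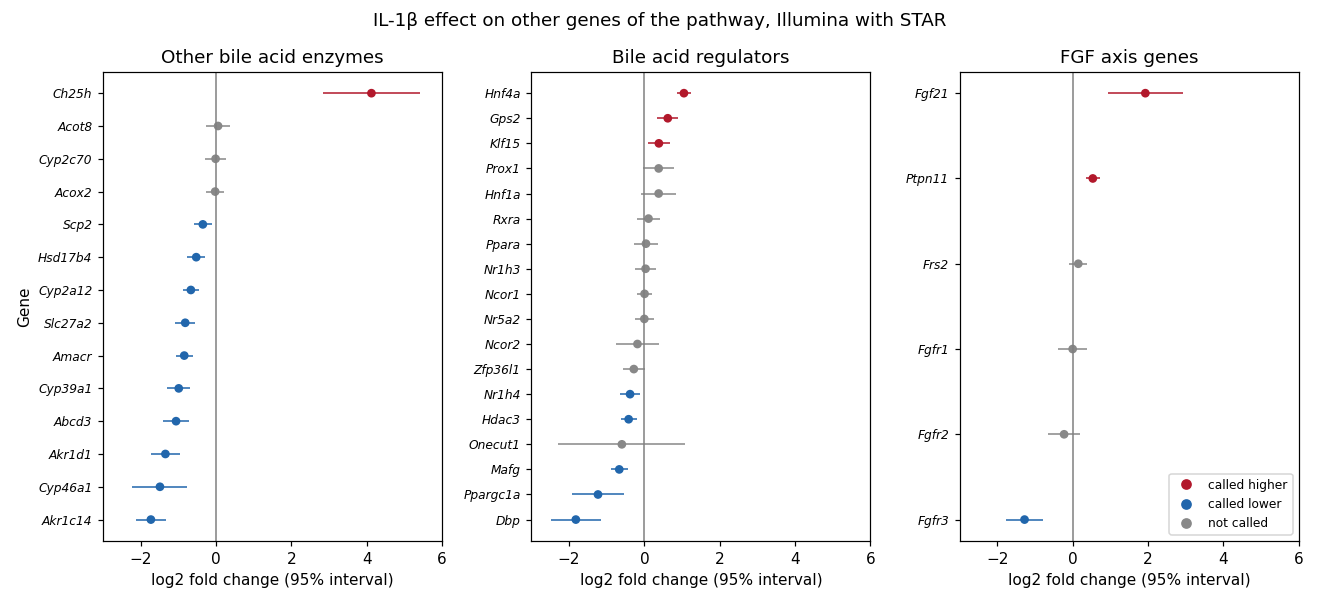
Log2 fold change with 95% interval (edgeR, Illumina libraries aligned with STAR) of the tested genes of 3 lists around the bile acid genes; blue points were called lower, red higher and grey not called. Of the other enzymes 10 of 14 are blue and Ch25h is red at 4.12, and among the regulators Hnf4a is highest at 1.05.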

How the data were processed

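Liver RNA of 10 mice was sequenced on both platforms (20 libraries, stranded kits with poly-A selection). Per the labels, reads were aligned to mm9 with STAR 2.5.1b, GSNAP or STAR followed by Bowtie2 2.2.9. The authors assigned reads to Ensembl genes with PORT, removed rRNA and mitochondrial reads, and re-sampled libraries to equal numbers of reads. The totals of the deposited counts still differ between treatments within a table. The deposited values are whole-number counts per gene, at 10568530 to 16439683 per library, and all 60 count columns were used. Re-sampling does not adjust for composition, so TMM scaling (factors 0.920 to 1.10) was added.

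Each table was fitted alone in R 4.3.3 with edgeR 4.0.16 (quasi-likelihood test, treatment only, Benjamini-Hochberg over 15578 genes). The study used a Mann-Whitney U test, taken here as an alternative because it gives no error. That test was run on the counts without TMM scaling. Other alternatives were limma 3.58.1, DESeq2 1.42.0, other scalings and filters, and each mouse left out. The platform term kept the mouse as a block, since both libraries of a mouse share 1 RNA sample. Their deviations from the group mean correlated at 0.534 to 0.707 in 9 mice and at 0.246 in UNT_9584 (10543 genes). Fits were tested on simulated data, and figures were drawn with matplotlib 3.10.9. Gene positions are of GENCODE vM1 on NCBIM37, and promoters of RefSeq.

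The members and gene lists were chosen with earlier results of these data known. Beyond the members, genes with values are the 3 largest called changes of each list plus Nr1h4, Nr5a2, Hnf4a, Mafg and Fgf15. Setd1a was added for its overlap, and Klf15, Slc10a2 and Fabp6 after their values were seen.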

Additional observations from a re-analysis of the deposited data

Results flagged for a closer look

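Of 40 groups of 5 mice (10 genes, both treatments, both platforms with STAR), 8 held 1 mouse far from the other 4. The measure is the gap to the nearest mouse divided by the range of the group, with a limit of 0.710, and chance alone marks about 1 in 20 groups, or 2 of 40. Mouse ILB_9578 after IL-1β was the mouse in 7 of them. On Illumina it was lowest for Cyp8b1 (0.740), Hsd3b7 (0.713) and Nr0b2 (0.772). On Ion Torrent it was lowest for Cyp8b1 (0.871), Hsd3b7 (0.762) and Nr0b2 (0.894) and highest for Baat (0.717). These libraries come from the same RNA, so they are not separate observations. The other mouse was untreated UNT_9580, lowest for Cyp7a1 on Illumina (0.758).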

How the results depend on the processing

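With 23 alternatives for each of 22 named genes, 484 of 506 values kept their side of the threshold, 12 lost the call and 10 gained it. No called value changed sign, but 21 values that were not called did, 10 of Cyp27a1 (range -0.17 to 0.06) and 11 of Nr5a2 (-0.18 to 0.04). An added threshold of 1 on the size of the log2 fold change gave 3 members lower and 0 higher, 4 other enzymes lower, 2 regulators lower and 1 higher, and 1 gene higher around FGFR4, since it removes small changes by construction. The Mann-Whitney U test, on counts without TMM scaling, gave 0 members higher (Baat was lost). It gave 1 gene higher around FGFR4 (Fgf21 was lost, Mann-Whitney adjusted p = 0.0798). This alternative changes both the test and the scaling, and their parts were not tested. Leaving out each mouse gave 5 to 6 members lower and 1 higher, 10 other enzymes lower, 4 to 6 regulators lower and 2 to 3 higher. With the added threshold 8.88% of all tested genes were lower. For the other counts in this paragraph the shares of all tested genes were not computed, so they are a description only.

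Nr0b2 gained the call in 7 alternatives, among them library totals without TMM (edgeR adjusted p = 0.0477) and no filter on low counts (edgeR adjusted p = 0.0489). Without TMM 11929 genes averaging at least 10 reads had a median log2 fold change of -0.12, against 0.00 with it, so changes are relative to that shift. Cyp27a1 then went from 0.01 to -0.12 and was not called. The 4 ratios kept their direction and call in 15 alternatives each.

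The mouse pairs the platforms. With the replicate block and without it, 0 members had a platform-by-treatment term. Over all tested genes 1 was called with the block and 0 without it, and at an unadjusted p below 0.05 the counts were 1090 and 244 (edgeR), of them 2 and 0 members. In Cyp7a1, mouse ILB_9578 rested on 4 reads, and Ch25h and Fgf21 on under 20 reads per library.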

Other observations

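Slc10a2, the sodium-dependent bile acid carrier of ileum and bile ducts, had 186, 202, 136, 193 and 297 untreated reads and 455, 908, 577, 677 and 579 treated reads (log2 fold change 1.83, edgeR adjusted p = 6.90e-06), and the groups did not overlap. It was on a list of ileal genes whose other members gave Fabp6, the ileal bile acid binding protein, at 0 reads in all 10 libraries and Vil1 without a call. Among cholangiocyte markers Sox9 and Epcam rose, Krt19 and Krt7 were not called and Cftr was not tested. Of all tested genes 22.7% rose.

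The genes whose deviations from their treatment group were most like those of Cyp7a1 over the 10 mice on Illumina were Abca3 (Pearson r = 0.94), Ttc38 (0.91), Gdf2 (0.90), Cdc42ep4 (0.90) and Mxi1 (0.88), out of 7810 genes. On Ion Torrent the values were 0.58, 0.54, 0.82, 0.68 and -0.32. These are the highest of many values over mice that share libraries with Cyp7a1, in which mouse ILB_9578 lies far out, and they are a description only.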
